A study of Mus musculus with 30 samples.

Results

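The genes described here are 36 listed genes of glucose uptake, glycolysis, lactate transport and the response to low oxygen, given by gene symbol. The list was chosen with earlier results of these data known. All 36 had a row among the 55573 genes of the deposited count table. Of these, 35 reached at least 10 counts in 5 or more of the 30 libraries, and these 35 are described below. P4ha2, which encodes a subunit of the enzyme that hydroxylates collagen, reached 10 counts in 4 libraries, with 0 to 24 counts per library, and was left out.

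C57BL/6 mice aged 8 weeks, either wild type (WT) or labelled Furin knockout (KO), provided naive CD8+ T cells, the precursors of cytotoxic T cells. All cultures stood for 3 days in serum-free medium on wells carrying anti-CD3 and anti-CD28, each at 5 µg/ml, which imitate antigen and costimulation. The cultures received nothing more, 0.5 ng/ml of TGFB1 or 10 ng/ml of IL12, which made 6 groups of 5 libraries each. Furin encodes a protease that cuts precursor proteins, and the comparisons ask how its loss and the 2 cytokines shift gene expression. What the knockout removes from the gene, and what drives the deletion in which cells, is not given in the sources used here. The labels do not say that the libraries of a group came from separate animals, so p-values measure the spread between these libraries. The numbers of the libraries in the labels were 62, 67, 71, 72 and 75 in WT and 63, 68, 70, 73 and 74 in KO, and values are listed in that order throughout. By the labels, libraries 62 and 63 came from male mice and all others from female mice, so that each group held 1 male and 4 female libraries.

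Glycolysis splits glucose into pyruvate, and lactate dehydrogenase then turns pyruvate into lactate, which monocarboxylate transporters carry out of the cell. T cells that divide after antigen contact run this route at a high rate even where oxygen is plentiful. HIF1A, a transcription factor that prolyl hydroxylases mark for breakdown when oxygen is present, binds short motifs near many of these genes, as MYC does at related motifs.

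Library totals ran from 7306151 to 15502443 counts, and mitochondrial genes held 0.656% to 2.1% of them. Values are CPM (counts scaled by library size and TMM factors), so each is relative to the other transcripts of the library. In these bulk cultures, fewer cells of a type and less RNA per cell cannot be told apart. The 9 markers of CD8 T cells summed to 3350 to 6480 CPM. The 3 markers of CD4 T cells summed to 11.7 to 33.6 CPM, most of it Zbtb7b (15.6 CPM in WT without cytokine, where Cd4 averaged 0.394 CPM), and Cd40lg averaged 1.38 CPM there and 8.46 CPM in WT with IL12. The 5 markers of B cells summed to 5.99 to 18.6 CPM, of which Cd79b held 12.6 CPM in WT without cytokine, where Ms4a1 and Pax5 had no count. The markers of natural killer cells, myeloid cells and erythroid cells and platelets summed to at most 2.53, 8.21 and 0.312 CPM in any library. Of the markers of stromal and endothelial cells, Pecam1, which T cells also carry, made up nearly the whole sum. Furin itself was read at 28.8 to 38.5 CPM in WT and 31.5 to 33.9 CPM in KO without cytokine, at 73.9 to 93.2 and 66 to 90.2 CPM with TGFB1, and at 161 to 533 and 120 to 463 CPM with IL12. These gene totals include any exons left in place and do not check the genotype labels.

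Some libraries stood apart within their group. WT library 62 with TGFB1 moved, over all tested genes, by 0.35 of the shift of the other WT libraries with TGFB1, and had the highest value of its group for 15 of the 35 genes. It is also the male library of that group, so sex and library cannot be told apart within it. WT library 71 without cytokine had the highest value of its group for 21 of the 35. With IL12, WT libraries 62 and 67 moved by 0.5 and 0.54 of the shift of the rest of their group, WT 72 and 75 by 1.29 and 1.3, and KO library 74 by 1.41.

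The promoter sequences of 6 genes are shown. These 6 had the widest ranges between group means among the genes with a promoter in the RefSeq table used. The letters they hold played no part in the choice. Each line gives the 250 bases before the RefSeq start site (GRCm38.p6), 5′ to 3′ along the gene's strand. Capitals mark ACGTG or GCGTG, the core letters of the hypoxia response element, in either orientation (CACGT or CACGC where the match is on the other strand).
Ak4: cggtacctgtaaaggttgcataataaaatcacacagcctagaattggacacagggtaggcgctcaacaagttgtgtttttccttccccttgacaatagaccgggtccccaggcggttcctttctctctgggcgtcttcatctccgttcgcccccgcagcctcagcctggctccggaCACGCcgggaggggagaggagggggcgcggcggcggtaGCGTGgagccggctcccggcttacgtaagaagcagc
Bnip3: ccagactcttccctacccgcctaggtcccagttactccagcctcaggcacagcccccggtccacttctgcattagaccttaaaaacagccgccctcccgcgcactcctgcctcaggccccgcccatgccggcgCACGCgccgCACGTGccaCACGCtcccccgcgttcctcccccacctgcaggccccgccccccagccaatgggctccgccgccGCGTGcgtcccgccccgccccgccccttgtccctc
Hk2: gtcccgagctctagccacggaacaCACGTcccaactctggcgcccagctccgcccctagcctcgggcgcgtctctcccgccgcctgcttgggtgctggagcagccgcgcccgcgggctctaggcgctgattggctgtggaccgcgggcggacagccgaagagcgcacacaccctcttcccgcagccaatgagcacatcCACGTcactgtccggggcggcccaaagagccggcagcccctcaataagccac
Slc16a3: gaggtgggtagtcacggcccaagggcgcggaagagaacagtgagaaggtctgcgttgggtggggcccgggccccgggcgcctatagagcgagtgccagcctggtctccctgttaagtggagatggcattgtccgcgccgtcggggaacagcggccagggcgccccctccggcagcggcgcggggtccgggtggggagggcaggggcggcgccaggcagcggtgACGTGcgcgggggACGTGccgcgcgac
Egln3: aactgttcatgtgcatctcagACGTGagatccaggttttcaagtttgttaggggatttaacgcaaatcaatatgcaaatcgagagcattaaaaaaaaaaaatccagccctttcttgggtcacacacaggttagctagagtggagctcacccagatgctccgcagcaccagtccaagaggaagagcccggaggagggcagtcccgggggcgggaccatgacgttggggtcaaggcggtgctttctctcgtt
Eno3: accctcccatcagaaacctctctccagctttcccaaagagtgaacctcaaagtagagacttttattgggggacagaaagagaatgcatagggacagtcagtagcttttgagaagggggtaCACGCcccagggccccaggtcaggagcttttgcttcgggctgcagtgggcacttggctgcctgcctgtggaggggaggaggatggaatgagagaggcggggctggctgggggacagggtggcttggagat
These are chr4:101419039-101419288 (plus strand) for Ak4, chr7:138909507-138909756 (minus) for Bnip3, chr6:82774455-82774704 (minus) for Hk2, chr11:120948817-120949066 (plus) for Slc16a3, chr12:54203875-54204124 (minus) for Egln3 and chr11:70656926-70657175 (plus) for Eno3. Bnip3 held 5 matches, among them the palindrome CACGTG, which contains ACGTG on each strand and was counted once per strand. Ak4, Hk2 and Slc16a3 held 2 matches each, and Egln3 and Eno3 held 1 each. Each gene was read at its most upstream start site in the table. Of the 33 genes with a promoter there, 26 (78.8%) held at least 1 match, against 12679 of all 32851 promoters of the same length (38.6%), where a gene with several start sites counts more than once. CACGTG was in 5 of the 33 (15.2%) and in 6.02% of all promoters. The set of all promoters was not matched to the list in base composition or expression. These shares therefore do not tell whether the motifs are particular to the list. Gpi1, Tpi1, Hk1, Aldoa, Pkm, Vegfa and Mxi1 held no match in this window, which says only that the letters are not there. Of these, Hk1, Aldoa, Pkm, Vegfa and Mxi1 had 2 or 3 start sites in the table and held 1 to 3 matches at another of them.

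The 35 genes together took 1.64% ± 0.092 of all counts (SD, n = 5) in WT and 1.67% ± 0.016 in KO without cytokine. With TGFB1 their share was 1.25% ± 0.21 in WT and 1.34% ± 0.028 in KO, and with IL12 it was 1.76% ± 0.17 and 1.68% ± 0.071. Every library with TGFB1 was below every library without cytokine of its genotype. The 5 WT libraries with TGFB1 spread from 1.03% to 1.49%, while the 5 KO libraries stayed between 1.31% and 1.38%.

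**Figure D1:**
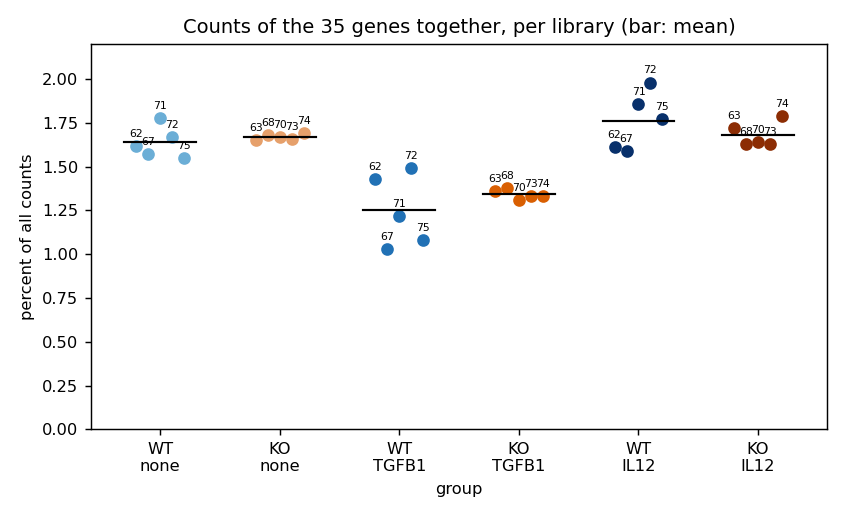
Share of all counts held by the 35 genes, in percent, for each of 30 libraries in 6 groups; points are libraries with their number, bars are group means. All libraries with TGFB1 lie at or below 1.49%, and all others at or above 1.55%.

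Per length, as RPKM (CPM per kilobase of the gene's summed exons), the most abundant of these transcripts in WT without cytokine was Ldha at 1130 RPKM, followed by Aldoa at 649, Pkm at 472, Gapdh at 334, Tpi1 at 314, Pgk1 at 285 and Eno1 at 255 RPKM. Ldha and Aldoa far exceeded their isozymes: Ldhb stood at 10.1 RPKM beside Ldha, and Aldoc at 5.41 RPKM beside Aldoa. Eno3, the enolase known from muscle, was read at 89.4 RPKM, below Eno1. Of the hexokinases, Hk1 stood at 25.9 and Hk2 at 15.9 RPKM in that group. With IL12 their order was reversed, with 28.3 RPKM for Hk1 and 43.9 RPKM for Hk2 in WT, and 27.5 and 37.4 RPKM in KO.

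Most of these genes were lower with TGFB1 than without cytokine in both genotypes. By edgeR's quasi-likelihood test with Benjamini-Hochberg adjustment over 11718 genes, 23 of the 35 were lower and 2 higher with TGFB1 than without cytokine in WT, where 18.6% of all tested genes were lower and 19.2% higher (37.9% in all). In KO, 18 were lower and 1 higher, where 11% of all tested genes were lower and 13.5% higher (24.5% in all). The median log2 fold change over the 35 was -0.42 in WT and -0.26 in KO, beside 0.016 and 0.007 over all genes tested. Of the genes called lower, 16 were called in both genotypes, which is 69.6% of the WT list and 88.9% of the KO list. They were Slc2a1, Slc2a3, Slc16a3, Gpi1, Pfkl, Pfkp, Aldoa, Tpi1, Pgk1, Pkm, Ldha, Pdk1, Hif1a, Egln1, Bnip3 and Ak4. The hexokinases, Gapdh, Pgam1 and the enolases, which are steps of the same route, were not called lower in both genotypes. Among the 16, Slc16a3, Pfkl and Gpi1 in WT and Pfkp and Egln1 in KO lost the call in some alternative settings. Groups did not overlap for 14 genes that were lower in WT, where 6.77% of all tested genes were, and for 20 in KO, where 9.87% were.

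With IL12 few genes of the list changed. In WT 5 genes rose (Hk2, Slc2a1, Pgam1, Pkm and Hif1a) and 2 fell (Eno3 and Pdk1), where 10.5% of all tested genes rose and 8.3% fell (18.9% in all). In KO 3 rose (Hk2, Slc2a1 and Ndrg1) and Eno3 fell, where 8.49% of all tested genes rose and 5.74% fell (14.2% in all). Hk2, Slc2a1 and Eno3 were called in both genotypes. The shares of members called, 20% in WT and 11.4% in KO, were close to those backgrounds. The cytokine comparisons share the libraries without cytokine, so they are not independent of each other. The calls of Hk2 and Eno3 with IL12 were kept in both genotypes in every alternative run, and those of the other genes were not. In WT the count of calls was 4 without WT library 72 or 75 with IL12 and 11 without WT library 62 with IL12 and likewise in the female libraries alone. In KO it was 2 without KO library 74 with IL12 or KO library 63 or 73 without cytokine.

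Between the 2 cytokines, 25 genes were higher and 1 lower with IL12 than with TGFB1 in WT, where 26.6% of all tested genes were higher and 25.9% lower (52.5% in all). In KO 17 were higher and 2 lower, where 14.9% of all tested genes were higher and 15.9% lower (30.8% in all). The median log2 difference was 0.48 in WT and 0.26 in KO. Of the 6 groups, a TGFB1 group had the lowest mean for 30 of the 35 genes, and an IL12 group had the highest for 22. The same counts were not made over all tested genes, so how far they are particular to this list is not known.

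**Figure D2:**
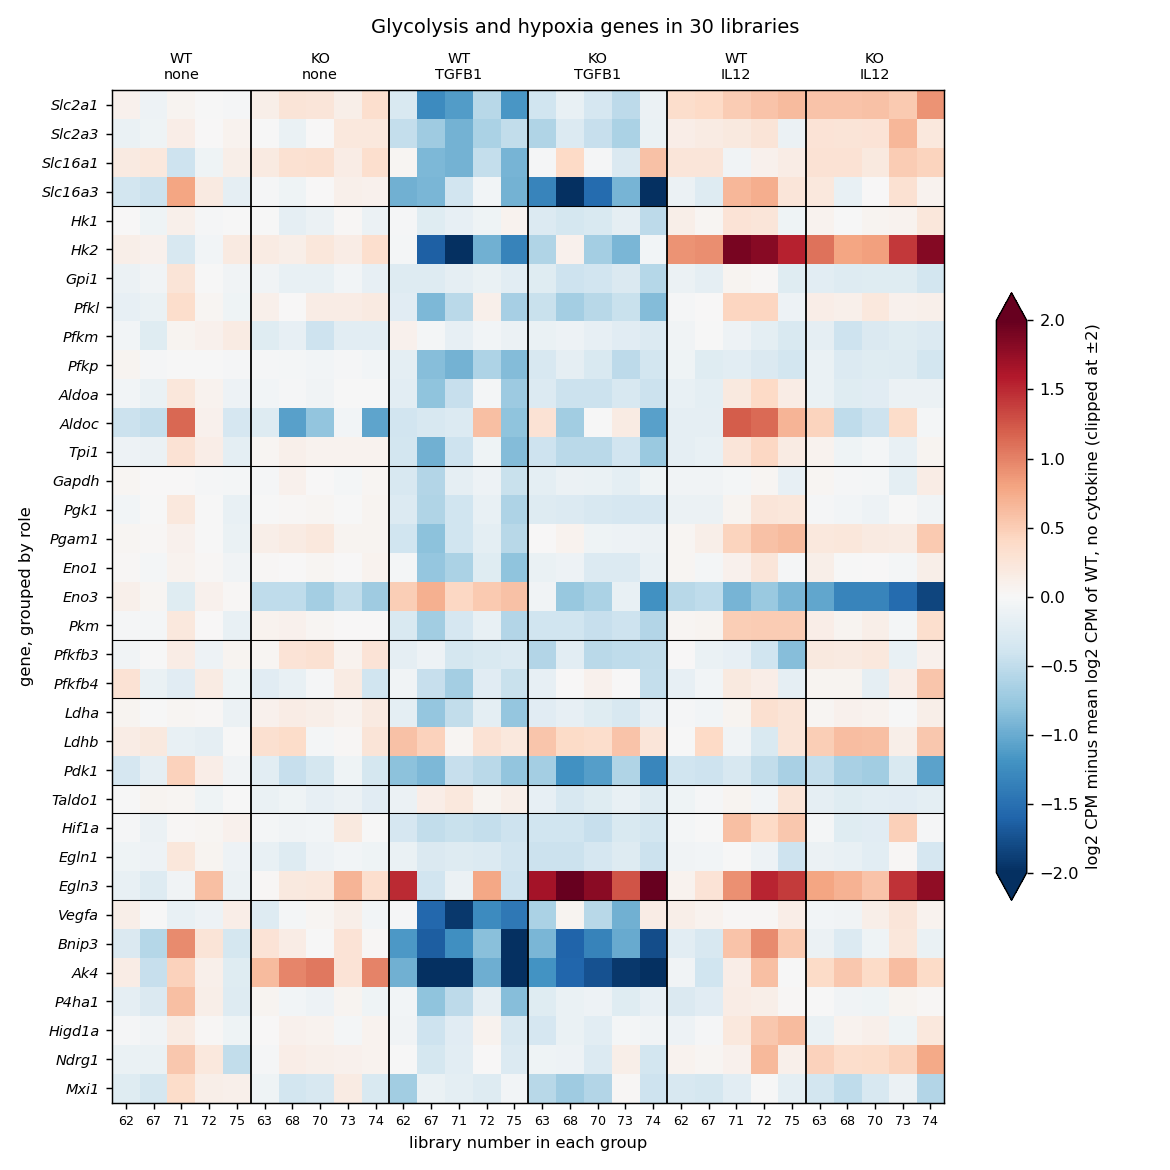
Log2 CPM of the 35 genes in 30 libraries, as the difference from the mean of WT without cytokine, with colours clipped at 2 in both directions; horizontal lines part the roles and vertical lines the groups. Most rows are blue in both TGFB1 groups and Hk2 is red with IL12, and the rows that are not blue with TGFB1 include Eno3 and Ldhb in WT and Egln3 in KO.

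Glucose enters T cells through SLC2A1 and SLC2A3, the facilitative glucose transporters GLUT1 and GLUT3. Slc2a1 was lowest with TGFB1 and highest with IL12 in both genotypes. Without cytokine Slc2a1 stood at 131, 115, 129, 123 and 122 CPM in WT against 134, 148, 147, 134 and 157 in KO. With TGFB1 Slc2a1 stood at 101, 51.8, 57.5, 84.05 and 55.3 CPM in WT beside 94.02, 111, 97.99, 85.8 and 114 in KO. With IL12 Slc2a1 reached 159, 164, 177, 184 and 193 CPM in WT against 184, 183, 185, 179 and 231 in KO. Within each genotype the 3 conditions did not overlap, and WT library 62 was the highest of the WT libraries with TGFB1. Slc2a1 fell with TGFB1 in WT (log2 fold change -0.83 ± 0.13 SE, adjusted p = 2.05e-05) and in KO (-0.52 ± 0.13 SE, adjusted p = 0.00303). It rose with IL12 in WT (0.50 ± 0.12 SE, adjusted p = 0.00581) and in KO (0.42 ± 0.12 SE, adjusted p = 0.0213). The IL12 calls were lost in 1 of 19 alternative settings in WT and 3 of 17 in KO.

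Slc2a3 followed the same order at a lower level per length (9.19 RPKM against 35.4 for Slc2a1 in WT without cytokine). Its CPM without cytokine were 60.3, 62.6, 73.02, 67.1 and 70.04 in WT and 65.8, 60.3, 66.8, 77.2 and 76.8 in KO, and with TGFB1 they were 47.6, 40.7, 34.6, 42.8 and 46.99 in WT and 43.6, 55.01, 48.2, 42.9 and 60.6 in KO. With IL12 Slc2a3 read 72.8, 74.1, 76.1, 79.2 and 61.2 CPM in WT beside 80.5, 79.6, 80.1, 105 and 76.9 in KO. The TGFB1 libraries lay below all libraries without cytokine in WT, and in KO the highest TGFB1 library, 74, slightly overlapped them. Slc2a3 fell with TGFB1 by 0.65 on the log2 scale in WT (± 0.11 SE, adjusted p = 4.53e-05) and by 0.47 in KO (± 0.10 SE, adjusted p = 0.00144), while with IL12 the values were 0.13, adjusted p = 0.427 in WT and 0.28, adjusted p = 0.0642 in KO.

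SLC16A1 and SLC16A3, the monocarboxylate transporters MCT1 and MCT4, move lactate across the membrane, and their transcripts differed from each other. Slc16a1 without cytokine measured 347, 354, 231, 289.9 and 332 CPM in WT against 347, 378, 382, 338 and 388 in KO. With TGFB1 Slc16a1 measured 316, 165, 159, 221 and 161 CPM in WT beside 304, 406, 303, 252 and 462 in KO. Under IL12 Slc16a1 measured 363, 361, 292, 325 and 339 CPM in WT against 377, 376, 353, 439 and 419 in KO. In WT, 4 of the 5 TGFB1 libraries lay below all libraries without cytokine and library 62 did not. The KO libraries with TGFB1 spread across the range of those without cytokine. Slc16a1 fell with TGFB1 in WT (log2 fold change -0.60 ± 0.16 SE, adjusted p = 0.0037), and in KO the value was -0.09 ± 0.16 SE, adjusted p = 0.732. The difference between these 2 responses did not pass the test in the main fit (0.52, adjusted p = 0.166). Set directly against WT, KO libraries with TGFB1 were higher in Slc16a1 (0.76 ± 0.16 SE, adjusted p = 0.000956).

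Slc16a3 without cytokine read 85.9, 82.04, 192, 126 and 97.5 CPM in WT, with library 71 far above the others, and 109, 104, 112, 119 and 117 in KO. With TGFB1 Slc16a3 read 56.6, 58.8, 84.5, 107 and 57.3 CPM in WT beside 44.3, 26.9, 38.1, 58.4 and 17.4 in KO. With IL12 Slc16a3 read 102, 92.8, 175, 183 and 130.3 CPM in WT against 128, 99.6, 111, 137 and 116 in KO. The KO libraries with TGFB1 lay below every KO library of the other conditions, and library 74 was the lowest of all 30. Slc16a3 fell with TGFB1 in KO (-1.60 ± 0.26 SE, adjusted p = 2.68e-05). In WT it also fell (-0.68 ± 0.25 SE, adjusted p = 0.0303), but without WT library 71 with no cytokine the value was -0.41 and no longer called (adjusted p = 0.167). The WT call was lost in 8 of 18 alternative settings, the female libraries alone among them, with adjusted p up to 0.257. Slc16a3 was lower in KO than in WT with TGFB1 (-0.98 ± 0.25 SE, adjusted p = 0.00442), the opposite direction to Slc16a1.

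Hexokinase puts the first phosphate on glucose. Hk2, its inducible form, had the widest range of the glycolytic enzymes. Without cytokine Hk2 counted 102, 99.4, 75.5, 90.2 and 106 CPM in WT beside 105, 102, 110.4, 104 and 119 in KO. With TGFB1 Hk2 counted 91.3, 30.3, 20.7, 48.1 and 37.4 CPM in WT against 61.97, 99.5, 58.9, 50.1 and 90.4 in KO. With IL12 Hk2 counted 174, 179, 352, 331 and 273 CPM in WT beside 199.8, 163, 167, 250.4 and 337 in KO. Every IL12 library was above every library of the same genotype without IL12. WT library 62 with TGFB1 lay among the libraries without cytokine, while the other 4 were below them. Hk2 rose with IL12 in WT (1.47 ± 0.27 SE, adjusted p = 0.00032) and in KO (1.04 ± 0.27 SE, adjusted p = 0.00776), and fell with TGFB1 in WT (-1.06 ± 0.28 SE, adjusted p = 0.00356). In KO with TGFB1 the value was -0.58 ± 0.27 SE, adjusted p = 0.115, and all 5 libraries lay below those without cytokine. The TGFB1 responses of the genotypes did not differ by the test in the main fit (0.48, adjusted p = 0.474). Hk1, the constitutive form, had a narrower range: it was called lower with TGFB1 in KO alone (-0.24 ± 0.07 SE, adjusted p = 0.0129; in WT -0.09, adjusted p = 0.351), a difference between genotypes that did not pass the test itself (difference of responses -0.16, adjusted p = 0.358).

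The next steps were described by ranges. Gpi1 (glucose phosphate isomerase) ranged from 604.8 to 1066 CPM over the 30 libraries, Pfkl and Pfkp (phosphofructokinase, the committed step) from 107 to 269 and 341 to 684 CPM, Aldoa (aldolase) from 1078 to 2484 CPM and Tpi1 (triosephosphate isomerase) from 439 to 1149 CPM. With TGFB1 the log2 fold changes of these 5 genes were between -0.22 (Gpi1) and -0.67 (Pfkp) in WT and between -0.26 (Gpi1) and -0.71 (Pfkl) in KO, and all 10 values were called. Gpi1 in WT was -0.14 without WT library 71 with no cytokine, and no longer called (adjusted p = 0.08). Pfkl in WT lost its call in 4 of 18 alternative settings (adjusted p up to 0.0767). Pfkp in KO lost its call without KO library 73 with TGFB1. None of the 5 was called with IL12 in either genotype. Pfkm, the muscle form of phosphofructokinase, ranged from 14.7 to 21.9 CPM and was called in no comparison. Pfkm and Pfkp overlap Senp1 and Pitrm1 on the other strand, with 636% and 24.3% of their counts, and the strand setting of the counting is not given in the sources used here, so both are uncertain.

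Aldoc, the brain form of aldolase, varied widely within groups. Without cytokine Aldoc gave 11.8, 11.5, 35.3, 16.99 and 12.7 CPM in WT against 13.3, 7.51, 9.24, 15.4 and 7.69 in KO. With TGFB1 Aldoc gave 12.2, 12.7, 13.2, 24.2 and 9.13 CPM in WT beside 19.5, 9.82, 15.8, 17.9 and 7.55 in KO. With IL12 Aldoc gave 14.1, 14.1, 36.8, 34.9 and 25.6 CPM in WT against 21.7, 11.3, 11.99, 20.7 and 15.6 in KO. WT libraries 71 and 72 were the highest of their group in each condition, and the groups overlapped in every comparison. Aldoc was called only between IL12 and TGFB1 in WT (0.81 ± 0.33 SE, adjusted p = 0.0406), a call lost in 10 of 19 alternative settings, DESeq2 among them.

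The lower part of the pathway, from Gapdh to Pkm, yields ATP. Gapdh, often used as a reference transcript, measured 1420.4, 1386, 1394, 1359 and 1345 CPM in WT beside 1364, 1463, 1388, 1345 and 1426 in KO without cytokine. With TGFB1 Gapdh measured 1102, 917, 1216, 1289 and 1012 CPM in WT against 1203, 1271, 1254, 1201 and 1306 in KO, and with IL12 it measured 1320.00, 1318, 1343, 1421 and 1238 CPM in WT and 1419, 1353, 1345, 1211 and 1538 in KO. Its TGFB1 libraries lay below all libraries without cytokine in both genotypes. Gapdh fell by a log2 value of 0.32 in WT with TGFB1 (± 0.07 SE, adjusted p = 0.000732), and in KO the value was -0.16 ± 0.07 SE, adjusted p = 0.0799. The difference between these responses did not pass the test. Gapdh has 78 near copies in the annotation, which held 2.95% of the joint counts, so a small part of its reads may have been assigned elsewhere.

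Pgam1, phosphoglycerate mutase, distinguished the genotypes under TGFB1. Without cytokine Pgam1 lay at 107, 105, 110.5, 103 and 94.6 CPM in WT beside 113, 116, 119.8, 108 and 108 in KO. With TGFB1 Pgam1 lay at 78.5, 58.5, 78.6, 90.97 and 70.4 CPM in WT against 104, 109, 97.6, 96.6 and 95.3 in KO. With IL12 Pgam1 lay at 107, 112, 141, 156 and 160.3 CPM in WT beside 120.2, 122, 118, 117 and 149.8 in KO. All KO libraries with TGFB1 were above all WT libraries with TGFB1, and WT library 72 was the nearest. Pgam1 fell with TGFB1 in WT (-0.46 ± 0.10 SE, adjusted p = 0.00101), rose with IL12 in WT (0.38 ± 0.10 SE, adjusted p = 0.0094), and was higher in KO than in WT with TGFB1 (0.41 ± 0.10 SE, adjusted p = 0.00323). The IL12 call in WT was lost without WT libraries 72 and 75 with IL12 (adjusted p = 0.27). In KO the IL12 value was 0.15, adjusted p = 0.362.

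Pkm, pyruvate kinase, makes pyruvate. Without cytokine Pkm totalled 2316, 2283, 2724, 2357 and 2131 CPM in WT against 2485, 2489, 2428, 2375 and 2372 in KO. With TGFB1 Pkm totalled 1914, 1456, 1875, 2119 and 1576 CPM in WT beside 1782, 1787, 1717, 1764 and 1572 in KO. With IL12 Pkm totalled 2413, 2435, 3297, 3366 and 3332 CPM in WT against 2594, 2447, 2545, 2286 and 2957 in KO. The TGFB1 libraries were below all others in both genotypes, and WT libraries 71, 72 and 75 with IL12 formed the top. Pkm fell with TGFB1 in WT (-0.40 ± 0.10 SE, adjusted p = 0.00201) and KO (-0.49 ± 0.10 SE, adjusted p = 0.000369) and rose with IL12 in WT (0.33 ± 0.10 SE, adjusted p = 0.0177). The IL12 call was lost in 5 of 19 alternative settings, with adjusted p up to 0.299. Pgk1 (phosphoglycerate kinase) fell with TGFB1 in both genotypes (log2 -0.40 in WT, -0.33 in KO), and Eno1 (enolase) fell in WT (-0.47, adjusted p = 0.000515) with a value of -0.22 in KO (adjusted p = 0.103). For Eno1 the difference between these responses did not pass the test in the main fit (0.25, adjusted p = 0.266).

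Eno3 went against the other glycolytic genes. Without cytokine Eno3 held 166, 158, 131, 165 and 157 CPM in WT beside 108, 109, 96.9, 109.9 and 94.2 in KO. With TGFB1 Eno3 held 218, 254, 206, 222 and 233 CPM in WT against 147, 91.5, 99.6, 139.6 and 67.1 in KO. With IL12 Eno3 held 106, 108, 81.6, 92.1 and 82.05 CPM in WT beside 75.4, 62.03, 62.4, 53.2 and 43.2 in KO. In each condition every KO library was below every WT library, as for Taldo1. Of all tested genes, 3.54%, 3.91% and 2.76% had KO libraries wholly below WT without cytokine, with TGFB1 and with IL12. Eno3 rose with TGFB1 in WT (0.54 ± 0.15 SE, adjusted p = 0.00462) and not detectably in KO (0.07 ± 0.15 SE, adjusted p = 0.775). The difference between these 2 responses did not pass the test in the main fit (-0.47, adjusted p = 0.173). Eno3 fell with IL12 in both genotypes (-0.73 ± 0.15 SE, adjusted p = 0.000957 in WT and -0.81 ± 0.15 SE, adjusted p = 0.00044 in KO). Its KO to WT log2 difference was -0.58 ± 0.15 SE, adjusted p = 0.0338 without cytokine, -1.06 ± 0.15 SE, adjusted p = 6.32e-05 with TGFB1 and -0.67 ± 0.15 SE, adjusted p = 0.0103 with IL12. Without cytokine the call was lost in 9 of 17 alternative settings, with values from -0.64 to -0.55 and adjusted p up to 0.12.

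**Figure D3:**
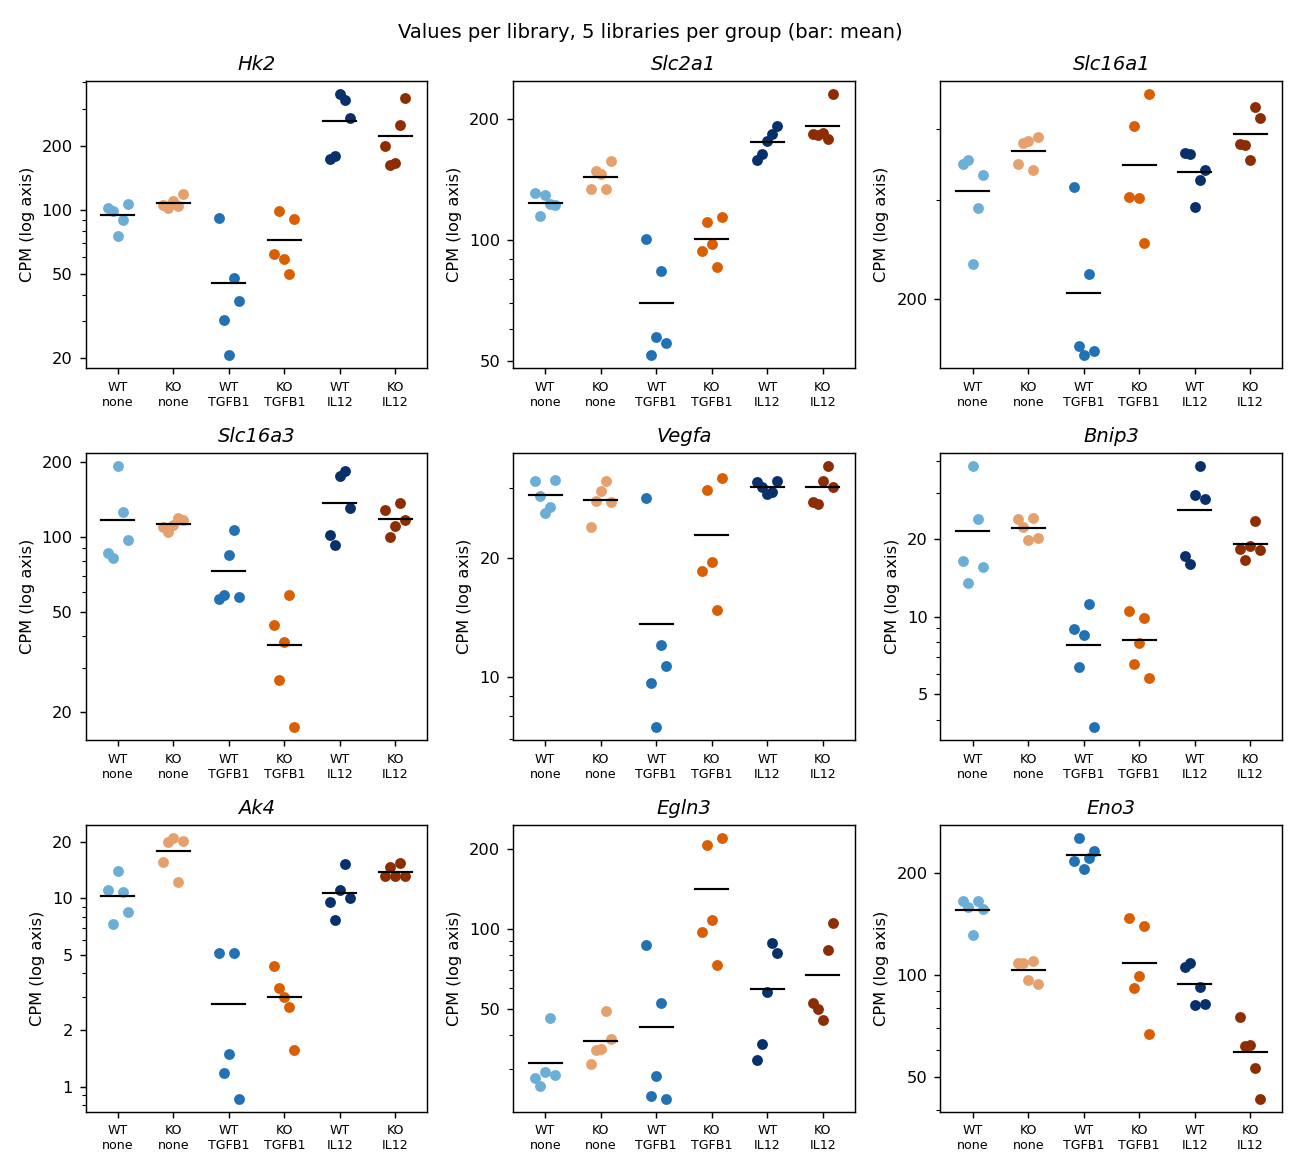
CPM on a log axis for 9 genes in the 6 groups, with 1 point per library and bars at the group means. Hk2 and Slc2a1 are highest with IL12, Ak4 and Bnip3 are lowest with TGFB1, Slc16a1 and Slc16a3 part in opposite directions between WT and KO with TGFB1, and Eno3 is lower in KO in every condition.

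PFKFB3 and PFKFB4 set the level of the sugar bisphosphate that activates phosphofructokinase. Pfkfb3 ranged from 19.1 to 42.2 CPM and Pfkfb4 from 3.53 to 8.32 CPM over the 30 libraries. Pfkfb3 fell with TGFB1 in KO (-0.66 ± 0.11 SE, adjusted p = 5.39e-05), where all 5 libraries lay below those without cytokine, and in WT the value was -0.24, adjusted p = 0.0842. The difference between these responses did not pass the test. With IL12 Pfkfb3 was higher in KO than in WT (0.39 ± 0.11 SE, adjusted p = 0.0303), a call lost without KO library 63, 68 or 70 among others. Pfkfb4 was called only between IL12 and TGFB1 in WT (0.36 ± 0.15 SE, adjusted p = 0.0499), a call lost in 12 of 19 alternative settings, DESeq2 among them.

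LDHA makes lactate from pyruvate, LDHB favours the reverse step, and PDK1 inhibits the entry of pyruvate into the mitochondrial cycle. Ldha without cytokine amounted to 3885, 3693, 3841, 3770.3 and 3438 CPM in WT against 3945, 4111, 4052, 3897 and 4234 in KO. With TGFB1 Ldha amounted to 3242, 2187, 2639, 3263 and 2187 CPM in WT beside 3168, 3321, 3144, 2975 and 3319.8 in KO. With IL12 Ldha amounted to 3681, 3601, 3882, 4658 and 4437 CPM in WT against 3804, 3929, 3923, 3682 and 4019.9 in KO. The TGFB1 libraries lay below all others of their genotype, and WT libraries 67 and 75 were the lowest. Ldha fell with TGFB1 in WT (-0.46 ± 0.09 SE, adjusted p = 0.000236) and KO (-0.35 ± 0.09 SE, adjusted p = 0.00462). Ldhb, in contrast, was called higher with TGFB1 in WT (0.32 ± 0.13 SE, adjusted p = 0.0499), a call that 12 of 18 alternatives did not keep, and ranged from 12.8 to 24.1 CPM.

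Pdk1 fell with TGFB1 in both genotypes and, unlike most of the list, was also called lower with IL12 in WT. Without cytokine Pdk1 came to 186, 207, 325, 259 and 223 CPM in WT, library 71 highest, and 203, 171, 183, 222 and 184 in KO. With TGFB1 Pdk1 came to 134, 127, 171, 162 and 136 CPM in WT beside 146, 101, 109, 154 and 95.2 in KO. With IL12 Pdk1 came to 178, 177, 189, 167 and 150.4 CPM in WT against 169.9, 149, 146, 191 and 111 in KO. The TGFB1 libraries did not overlap those without cytokine in either genotype, whereas the IL12 libraries did. Pdk1 fell with TGFB1 in WT (-0.72 ± 0.14 SE, adjusted p = 0.000406) and KO (-0.67 ± 0.15 SE, adjusted p = 0.00109) and with IL12 in WT (-0.48 ± 0.14 SE, adjusted p = 0.0206), with -0.33, adjusted p = 0.13 in KO. The IL12 call in WT was lost in 5 of 19 alternative settings, among them without WT library 71 with no cytokine (adjusted p up to 0.165). Taldo1, transaldolase of the pentose phosphate route, ranged from 173 to 258 CPM and was lower in KO than in WT with TGFB1 (-0.31 ± 0.06 SE, adjusted p = 0.000611) and with IL12 (-0.25 ± 0.06 SE, adjusted p = 0.0162). The call with IL12 was lost in 5 of 17 alternative settings, with adjusted p up to 0.192. The cytokine responses of Taldo1 were not called in either genotype, with log2 values between -0.08 and 0.08.

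The oxygen sensing genes were Hif1a and the prolyl hydroxylases Egln1 and Egln3, which lead to the breakdown of HIF1A protein. Hif1a without cytokine ran at 341, 319.9, 354, 359 and 367 CPM in WT beside 337, 329.6, 336, 398 and 344 in KO. With TGFB1 Hif1a ran at 274, 248, 255, 249 and 261 CPM in WT against 264, 263, 253, 282 and 269 in KO. With IL12 Hif1a ran at 338, 348, 529, 456 and 505 CPM in WT beside 339.9, 295, 296, 484 and 341 in KO. All TGFB1 libraries were below all others, and with IL12 WT libraries 71, 72 and 75 and KO library 73 stood above the rest. Hif1a fell with TGFB1 in WT (-0.44 ± 0.11 SE, adjusted p = 0.00317) and KO (-0.39 ± 0.11 SE, adjusted p = 0.0105). It rose with IL12 in WT (0.32 ± 0.11 SE, adjusted p = 0.0415), and the value in KO was 0.01 ± 0.11 SE, adjusted p = 0.974. The WT call was lost in 12 of 19 alternative settings, with adjusted p up to 0.356. The difference between the IL12 responses of the genotypes did not pass the test for Hif1a. The values are transcript levels, and HIF1A is regulated largely as a protein, which was not measured. Egln1 fell slightly with TGFB1 in WT (-0.27 ± 0.08 SE, adjusted p = 0.00679) and KO (-0.25 ± 0.08 SE, adjusted p = 0.0167).

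Egln3, itself a known HIF target, rose most of the list with TGFB1 in KO. Without cytokine Egln3 showed 27.7, 25.8, 29.2, 46.5 and 28.4 CPM in WT against 31.3, 35.3, 35.6, 49.4 and 38.9 in KO. With TGFB1 Egln3 showed 86.8, 23.7, 28.2, 52.8 and 23.2 CPM in WT beside 97.1, 207, 108, 73.2 and 219.7 in KO. With IL12 Egln3 showed 32.4, 37.2, 58.1, 88.3 and 81.4 CPM in WT against 52.98, 49.99, 45.7, 83.5 and 105 in KO. All KO libraries with TGFB1 exceeded all KO libraries without cytokine. In WT with TGFB1, libraries 62 and 72 were high and the other 3 were within or below the range without cytokine, so that library 62 overlapped the KO libraries. Egln3 rose with TGFB1 in KO (1.89 ± 0.35 SE, adjusted p = 0.000189), and in WT the value was 0.45 ± 0.35 SE, adjusted p = 0.333. The difference between these 2 responses did not pass the test in the main fit (1.44, adjusted p = 0.0859). Egln3 was higher in KO than in WT with TGFB1 (1.72 ± 0.35 SE, adjusted p = 0.000737), a call kept in all 17 alternative settings with values from 1.5 to 2.24. With IL12 the values were 0.92, adjusted p = 0.0655 in WT and 0.83, adjusted p = 0.111 in KO.

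Of the 7 hypoxia response genes used, 4 fell with TGFB1 in WT (Vegfa, Bnip3, Ak4 and P4ha1) and 2 in KO (Bnip3 and Ak4), where 18.6% and 11% of all tested genes fell. Ak4, a mitochondrial adenylate kinase, changed most of all 35 genes. Without cytokine Ak4 numbered 11.1, 7.299, 13.9, 10.8 and 8.51 CPM in WT beside 15.6, 19.8, 20.98, 12.2 and 20.1 in KO. With TGFB1 Ak4 numbered 5.15, 1.18, 1.501, 5.12 and 0.865 CPM in WT against 4.39, 3.34, 3.01, 2.65 and 1.57 in KO. With IL12 Ak4 numbered 9.57, 7.66, 11.1, 15.3 and 10.05 CPM in WT beside 13.1, 14.6, 13.1, 15.4 and 13.1 in KO. The TGFB1 libraries lay below all others in both genotypes, and WT libraries 62 and 72 were the highest of theirs. Ak4 fell with TGFB1 in WT (-1.90 ± 0.32 SE, adjusted p = 6.30e-05) and KO (-2.59 ± 0.31 SE, adjusted p = 4.09e-07). Its KO to WT difference without cytokine, 0.78 ± 0.28 SE, adjusted p = 0.127, did not pass the test.

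Bnip3 encodes a mitochondrial protein of mitophagy, and its promoter held the most matches of the 6 shown. Without cytokine Bnip3 sat at 16.3, 13.5, 38.3, 23.8 and 15.6 CPM in WT against 23.95, 22.1, 19.8, 23.97 and 20.2 in KO. With TGFB1 Bnip3 sat at 8.96, 6.37, 8.47, 11.2 and 3.75 CPM in WT beside 10.5, 6.58, 7.898, 9.85 and 5.801 in KO. With IL12 Bnip3 sat at 17.2, 15.99, 29.6, 38.2 and 28.5 CPM in WT against 18.3, 16.5, 18.8, 23.4 and 18.1 in KO. No TGFB1 library reached any other library, and WT library 71 without cytokine and WT 72 with IL12 were highest. Bnip3 fell by nearly equal amounts, -1.46 ± 0.27 SE, adjusted p = 0.000157 in WT and -1.44 ± 0.27 SE, adjusted p = 0.00019 in KO.

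Vegfa, the angiogenic growth factor, separated WT library 62 from the rest of its group. Without cytokine Vegfa yielded 31.1, 28.6, 25.9, 26.8 and 31.3 CPM in WT beside 23.95, 27.8, 29.4, 31.2 and 27.6 in KO. With TGFB1 Vegfa yielded 28.2, 9.67, 7.503, 12.05 and 10.7 CPM in WT against 18.5, 29.7, 19.5, 14.8 and 31.9 in KO. With IL12 Vegfa yielded 31.02, 30.1, 28.998, 29.3 and 31.3 CPM in WT beside 27.6, 27.4, 31.1, 34.1 and 30.1 in KO. In WT with TGFB1, 4 libraries lay below every KO library and library 62 lay within the range without cytokine. Vegfa fell with TGFB1 in WT (-1.09 ± 0.22 SE, adjusted p = 0.000505), with -0.29 ± 0.22 SE, adjusted p = 0.356 in KO. The difference between these 2 responses did not pass the test in the main fit (0.80, adjusted p = 0.126). Set directly against WT, Vegfa in KO with TGFB1 was higher (0.76 ± 0.22 SE, adjusted p = 0.0103). Without WT library 62 that difference was 1.2 (adjusted p = 4.2e-06). The call was lost without KO library 74 (0.60, adjusted p = 0.0547) and when only the 2 groups compared were fitted (0.75, adjusted p = 0.116).

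The other hypoxia response genes moved less. P4ha1, the catalytic subunit of collagen prolyl hydroxylase, fell with TGFB1 in WT (-0.49 ± 0.14 SE, adjusted p = 0.00775), but without WT library 71 with no cytokine the value was -0.29 (adjusted p = 0.0545). Ndrg1, a gene known to respond to stress, was called higher with IL12 in KO (0.41 ± 0.14 SE, adjusted p = 0.0424). That call was lost in 9 of 17 alternative settings, 8 of them with a single library left out. Higd1a, a mitochondrial protein, was called only between IL12 and TGFB1 in WT (0.47 ± 0.11 SE, adjusted p = 0.000886), and Mxi1, a MYC antagonist, was called nowhere.

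**Figure D4:**
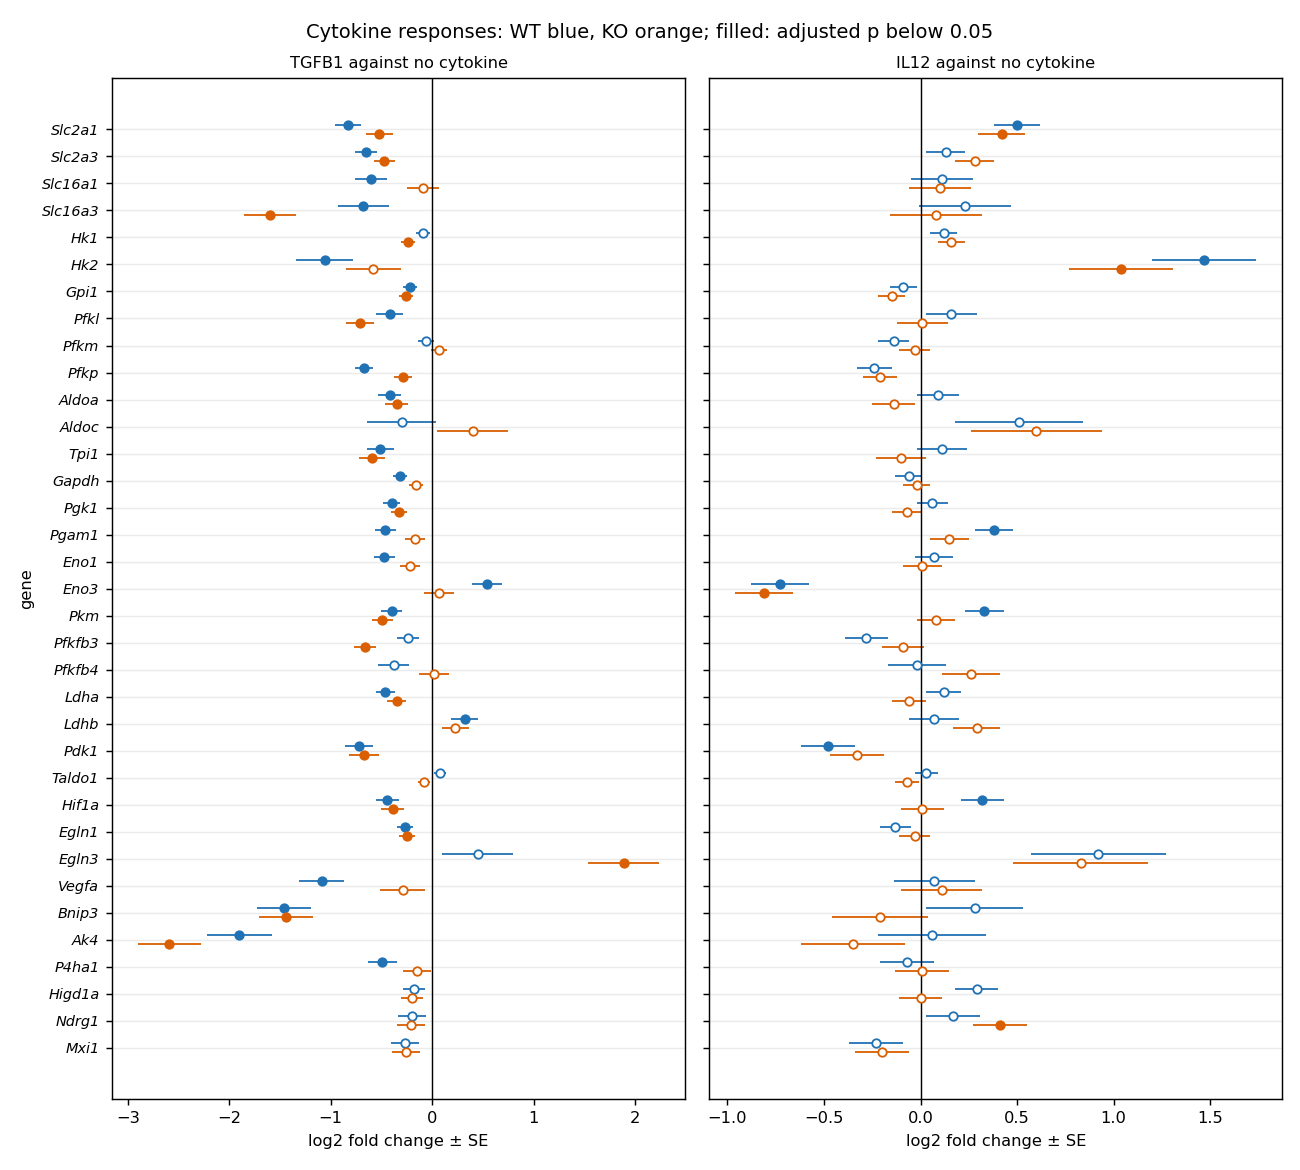
Log2 fold change with SE for each of the 35 genes, TGFB1 against no cytokine on the left and IL12 against no cytokine on the right, WT in blue and KO in orange, filled where the adjusted p is below 0.05. Most TGFB1 values lie left of 0 and Egln3 in KO lies far right, while with IL12 Hk2 lies farthest right and Eno3 farthest left, and Egln3, Aldoc and Slc2a1 also lie right of 0 in both genotypes.

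KO and WT cells differed in few of these genes except with TGFB1. Without cytokine 1 gene, Eno3, was called, as lower in KO, where 1.08% of all tested genes were higher and 1.02% lower (2.1% in all). That call was lost without KO library 63, 68, 70 or 74 or WT library 67, 71, 72 or 75. With TGFB1, 8 genes were higher in KO (Slc2a1, Slc16a1, Pfkp, Pgam1, Eno1, Ldha, Egln3 and Vegfa) and 4 lower (Slc16a3, Hk1, Eno3 and Taldo1). These 12 are 34.3% of the 35, near the 35.6% of all tested genes called in that comparison (18.3% higher and 17.3% lower). With IL12, Pfkfb3 and Ldhb were higher in KO and Eno3 and Taldo1 lower, where 2.76% of all tested genes were higher and 4.01% lower (6.78% in all). When only the 2 groups compared were fitted, 6 genes were called with TGFB1 and 0 with IL12. With IL12 the count was 2 without KO library 63 or 70 or WT library 72, and 1 without KO library 68 or WT library 75.

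Among the genes higher in KO with TGFB1, Slc2a1 was 0.53 higher on the log2 scale (± 0.13 SE, adjusted p = 0.00259), Pfkp 0.34 (adjusted p = 0.00637), Eno1 0.28 (adjusted p = 0.0229) and Ldha 0.24 (adjusted p = 0.0369). Libraries of KO and WT overlapped for each of these 4, since WT library 62 or 72 reached the KO range. Slc2a1 and Pfkp lost their calls when only the 2 groups compared were fitted (adjusted p = 0.0549 and 0.0816). Eno1 lost its call without WT library 67, 71 or 75 or KO library 68 or 74 and when only the 2 groups compared were fitted, and Ldha lost it in 9 of 17 alternative settings. Hk2 had a value of 0.67 ± 0.28 SE, adjusted p = 0.0575, and without WT library 62 it was 1.08 (adjusted p = 0.000816).

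Whether the genotypes responded differently was tested as the difference between their responses. For TGFB1 0 of the 35 genes passed in the main edgeR fit, where 3.3% of all tested genes did (1.61% higher and 1.69% lower). By DESeq2 0 of the 35 passed as well. With the library number as a replicate block, edgeR called 4: Egln3 (1.45, adjusted p = 0.0431), Pfkp (0.40, adjusted p = 0.0296), Eno3 (-0.52, adjusted p = 0.0337) and Slc16a3 (-1.01, adjusted p = 0.012). The labels do not say that a number marks an animal, so the main fit had no block. In the main fit 7 had an unadjusted p below 0.05: Egln3 (1.44 ± 0.49 SE, adjusted p = 0.0859), Vegfa (0.80), Slc16a1 (0.52), Pfkp (0.38), Pfkfb3 (-0.42), Eno3 (-0.47) and Slc16a3 (-0.92). Without WT library 62 with TGFB1, edgeR called 6: Egln3, Vegfa, Slc16a1, Slc2a1, Pfkp and Eno1, all with a positive difference of KO minus WT. Without KO library 73 with TGFB1 3 passed, and without WT library 71 with no cytokine 1 did. In the female libraries alone, 4 passed: Egln3 (1.93, adjusted p = 0.0166), Vegfa (1.21, adjusted p = 0.00402), Slc16a1 (0.69, adjusted p = 0.0403) and Pfkp (0.50, adjusted p = 0.00392). For IL12 0 genes passed among the 35 and 0 among all genes tested by edgeR, and 0 of the 35 had an unadjusted p below 0.05. Beside the TGFB1 contrast, the summed markers of CD8 T cells were 4590 to 6480 CPM in WT and 3920 to 4680 CPM in KO, and Pecam1 was 25.9 to 81.1 and 7.46 to 35.4 CPM; their part in these results was not tested.

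**Figure D5:**
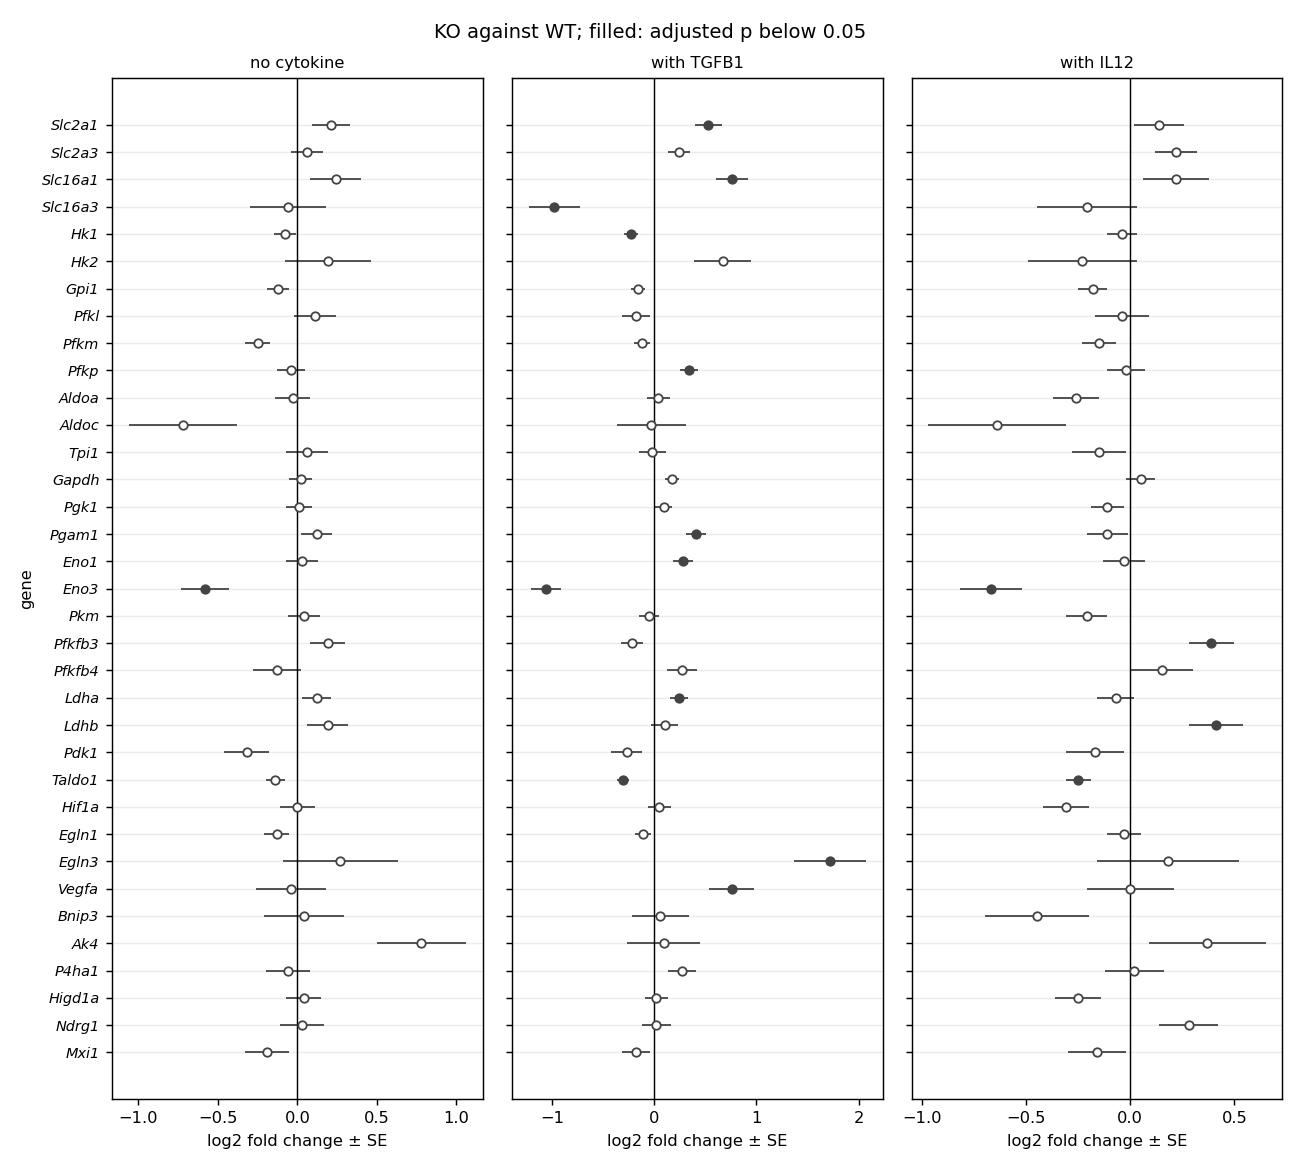
Log2 difference of KO from WT with SE for the 35 genes without cytokine, with TGFB1 and with IL12, filled where the adjusted p is below 0.05. Eno3 lies left of 0 in all panels, and with TGFB1 Egln3 lies farthest right at 1.72 and Slc16a3 and Eno3 farthest left.

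Other genes of the same pathways, taken from lists of names, moved in both directions with TGFB1. Beside the counts below, 37.9% of all tested genes were called in WT (19.2% higher and 18.6% lower) and 24.5% in KO (13.5% higher and 11% lower). Of 22 further hypoxia response genes tested, 6 were higher and 9 lower in WT, and 4 higher and 5 lower in KO. Plod2, a collagen lysyl hydroxylase, rose in KO (log2 fold change 1.38 ± 0.25 SE, adjusted p = 0.00012). Of 14 other glycolytic and hexose genes, 4 were higher and 4 lower in WT and 4 higher and 1 lower in KO. Bpgm, bisphosphoglycerate mutase, rose in KO by 1.00 ± 0.09 SE (adjusted p = 5.92e-09). Ldhd, the D-lactate dehydrogenase, rose in both (2.12 ± 0.55 SE, adjusted p = 0.0034 in WT and 2.56 ± 0.55 SE, adjusted p = 0.00095 in KO). Of 6 other pentose phosphate genes, 1 was higher and 4 were lower in WT, among them Rpia (-0.50), Pgd (-0.38) and G6pdx (-0.25), and Rpia alone was lower in KO (-0.36). With IL12, 4 of the 22 hypoxia genes were higher and 1 lower in each genotype, where 18.9% of all tested genes were called in WT and 14.2% in KO, led by Bhlhe40, a transcriptional repressor (1.57 ± 0.19 SE, adjusted p = 1.29e-06 in WT and 1.47 ± 0.19 SE, adjusted p = 3.40e-06 in KO). In KO against WT with TGFB1, 5 of the 22 were higher and 5 lower, where 35.6% of all tested genes were called, among them Car12, a carbonic anhydrase, which was higher (1.66 ± 0.28 SE, adjusted p = 0.000242), and Pnrc1, which was lower (-0.68 ± 0.17 SE, adjusted p = 0.00374).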

How the data were processed

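The values analysed are raw read counts of 30 libraries, as deposited, with 1 row for each Ensembl gene, made from poly(A) RNA with a directional kit, per the labels' protocols. Per the submitters' processing notes, the authors used FastQC, Trim Galore, STAR and DESeq2 1.24.0 with GRCm38. No source used here names the counting tool or its strand setting. Symbols came from GENCODE vM21 by Ensembl identifier.

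Counts were filtered with filterByExpr (minimum count 10), which kept 11718 of 55573 genes and 99.88% of counts, scaled by TMM, and fitted by quasi-likelihood in edgeR 4.0.16 (R 4.3.3, limma 3.58.1) with 1 mean for each of 6 groups. The 11 contrasts were tested two-sided, adjusted over all genes tested by Benjamini-Hochberg, and called below an adjusted p of 0.05. The script was tested on simulated data. CPM and RPKM were computed from the counts. Near copies were sought with BLAST 2.17.0 (95% identity over 200 bases). Alternatives were DESeq2 1.42.0, RLE size factors, no filter, the groups compared alone, a replicate block, a term for library numbers above 70, and libraries left out, the males (62 and 63) among them. The genes and lists were chosen with earlier results of these data known. Values per library are given for the 14 genes with the widest range of group means and for key genes of the pathway (Hif1a, Slc2a1, Slc2a3, Hk2, Ldha, Gapdh and Pkm), and at most 3 called genes of each other list are named per contrast. Some genes of these lists are not reported here.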

Additional observations from a re-analysis of the deposited data

Results flagged for a closer look

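For the 17 genes with values per library, the highest or lowest library of each group was set against the rest of its group by Dixon's test, and 10 of 102 groups had a library far from the other 4. Chance alone flags about 1 in 20 groups. Without cytokine, WT library 72 stood high in Egln3 at 46.5 CPM, WT library 71 stood low in Eno3 at 131 CPM and high in Aldoc at 35.3 CPM, and KO library 73 stood high in Hif1a at 398 CPM. With TGFB1, WT library 62 stood high in Vegfa at 28.2 CPM and WT library 72 in Aldoc at 24.2 CPM. With IL12, KO library 74 stood high in Slc2a1 at 231 CPM and in Pgam1 at 149.8 CPM, and KO library 73 stood high in Slc2a3 at 105 CPM and in Hif1a at 484 CPM.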

How the results depend on the processing

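The 117 calls of a gene in a comparison were refitted under the alternatives. Of 2080 such values, 1912 kept direction and call, 168 lost the call and 0 reversed. With TGFB1, 20 of 25 calls in WT and 16 of 19 in KO were kept in every alternative run, as were 6 of 12 for KO against WT with TGFB1 (Egln3, Eno3, Pgam1, Slc16a1, Slc16a3 and Taldo1). For KO against WT, 1 call without cytokine became 0 with WT library 62 with TGFB1 and WT library 71 left out (chosen after seeing the data), 3 with only the groups compared, and 0 to 1 with each library left out. With TGFB1 12 became 6 with only the groups compared, and 9 to 16 with each library left out. With IL12 4 became 0 without WT libraries 72 and 75, 2 with no filter, 0 with only the groups compared, and 1 to 5 with each library left out. The IL12 response went from 7 calls in WT to 2 without WT libraries 72 and 75 11 with the 24 female libraries alone (also chosen after seeing the data) and 4 to 11 with each library left out, and from 4 in KO to 8 with only the groups compared and 2 to 4 with each library left out. The difference in the TGFB1 response went from 0 to 8 without WT library 62 and WT library 71, 4 with the female libraries alone, and 0 to 6 with each library left out. The cause of these shifts was not tested.

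With single libraries left out, 6 of the 117 called values moved by over 1.5 times. Beside Slc16a3, P4ha1 and Vegfa above they were Gpi1 with TGFB1 in WT, which was -0.14 without WT library 71 with no cytokine (adjusted p = 0.08), Ndrg1 between IL12 and TGFB1 in WT, which was 0.22 without WT library 72 with IL12 (adjusted p = 0.174), and Hif1a between IL12 and TGFB1 in KO, which was 0.25 without KO library 73 with IL12 (adjusted p = 0.0515). The library numbers recur across conditions. With group means removed, libraries of the same number had correlations between -0.034 and 0.43 in 30 pairs (median 0.222), and 26 of 30 libraries correlated best with their own number, which is a hint from the data and not the design. With the number as a replicate block, 4 genes passed for the difference in the TGFB1 response (Egln3 at 1.45, Pfkp at 0.40, Eno3 at -0.52 and Slc16a3 at -1.01), 26 and 22 for TGFB1 in WT and KO, and 10 and 6 for IL12. KO against WT shares no numbers, so no block could be fitted there. Counts were lowest for Ak4, P4ha2 and Pfkfb4, whose precision depth limits most.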

Other observations

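Some regulators of the pathway were also called with TGFB1. Mxd4, a MYC antagonist, rose in WT (log2 2.70 ± 0.36 SE, adjusted p = 3.77e-06) and in KO (2.08 ± 0.37 SE, adjusted p = 0.000117), and Mxd1, of the same family, rose in both (1.17 ± 0.29 SE in WT and 1.22 ± 0.31 SE in KO). Myc fell in WT (-1.06 ± 0.19 SE, adjusted p = 0.000152) and was not called in KO, where its mean was 263 CPM without cytokine and 202 CPM with TGFB1. Of the 12 regulators tested, 4 were higher and 3 lower in WT, where 37.9% of all tested genes were called. In KO 2 were higher and 1 lower, near the 24.5% of all tested genes called there. In KO against WT with TGFB1, Mxd4 (-1.36 ± 0.34 SE), Mxd3 (-1.18 ± 0.24 SE) and Txnip, which restrains glucose uptake (-1.26 ± 0.34 SE), were lower, and 3 of the 12 were higher and 6 lower, where 18.3% of all tested genes were higher and 17.3% lower.

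Of 28 genes of pyruvate entry and the tricarboxylic acid cycle, 4 were higher and 14 lower with TGFB1 in WT, where 19.2% of all tested genes were higher and 18.6% lower. In KO 1 was higher and 5 lower, near the 24.5% of all tested genes called there. Pdk2, a kinase that inhibits pyruvate dehydrogenase, rose in WT (1.49 ± 0.33 SE, adjusted p = 0.000928), and Pdp1 and Pdp2, the phosphatases that activate it, fell there (-0.61 ± 0.14 SE and -0.84 ± 0.13 SE). In KO Pdp1 fell by 0.96 (± 0.13 SE) and Pdha1, a subunit of the enzyme, rose by 0.49 (± 0.06 SE, adjusted p = 4.66e-07). With IL12, 4 were lower in KO, among them Pdp1 (-0.49 ± 0.13 SE), Fh1 (-0.30 ± 0.07 SE) and Mdh1 (-0.24 ± 0.07 SE), near the 14.2% of all tested genes called there.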
